A study of Mus musculus with 12 samples.

Results

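The mitochondrial ribosomal protein genes are the nuclear genes whose products are carried into mitochondria and built into the ribosome there. They were taken as the protein-coding mouse genes whose symbol starts with Mrpl or Mrps followed by a digit, with the pseudogenes left out. That rule found 77 genes among the 43346 annotated genes of the expression tables, of which 21474 were protein-coding. GENCODE M21, the annotation used for symbols, holds 78 such genes, and Mrpl33 is not analysed here because its M21 identifier did not match a row.

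The mitochondrial ribosome translates the few messenger RNAs of the mitochondrial genome, all of which encode membrane subunits of the respiratory chain and the ATP synthase. Its ribosomal RNAs come from the mitochondrial genome, whereas every one of its proteins is made in the cytosol, so both genomes have to be expressed for it to form. About the core that it shares with bacterial ribosomes, the mammalian particle carries many proteins with no bacterial counterpart. Purkinje cells are the large GABAergic output neurons of the cerebellar cortex and are known to fire spontaneously.

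The samples were 12 RNA-seq libraries of 1 male mouse, a Castaneus × C57Bl6 hybrid (strain B6CASTF1/J) that was 14 months old. In all, 13 Purkinje cells were excised and homogenised together, and each library received 1 cell-equivalent of that lysate as total RNA longer than 200 bases, with spike-in RNA added, before a Smart-seq protocol. All 12 libraries are labelled as technical replicates, numbered 1 to 6 and 8 to 13, of the same biological replicate, with no treatment and no other genotype, so they form 1 group. Every SD and p-value below therefore measures the spread between splits of 1 lysate, which is technical, and says nothing of other cells or animals.

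The libraries held 15167444 to 27806010 expected counts (median 18921163), of which spike-in RNA took 4.78% to 14.6%, with the lowest shares in libraries 1, 4 and 13. Between libraries, the Spearman correlation of gene levels ran from 0.467 to 0.562. All 12 listed Purkinje markers had at least 50 counts in every library and summed to 28474 ± 5682 TPM (SD, n = 12). TPM is a count per transcript length, scaled so that all features of a library, spike-ins included, add up to the same total. Markers of other cells summed to 1289 to 3514 TPM for Bergmann glia, 55.3 to 552 TPM for granule cells, 91.3 to 375 TPM for oligodendrocytes, 0 to 446 TPM for microglia and 362 to 1551 TPM for red blood cells, and the part of these cells in the results below was not tested. Of these lists, 6 of 7 Bergmann glia, 2 of 5 granule cell, 1 of 5 oligodendrocyte, 0 of 5 microglia and 3 of 5 red blood cell markers reached 50 counts in every library. In such a pooled lysate, fewer cells of a type and less RNA per cell cannot be told apart.

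By the place of the protein in the mammalian ribosome, 50 of the 77 genes belong to the large subunit and 26 to the small subunit. The symbols give a slightly different split of 48 Mrpl and 29 Mrps genes, because the products of Mrps30 and Mrps18a sit in the large subunit. Mrps36 belongs to neither, since its product is now known as a component of the 2-oxoglutarate dehydrogenase complex. The genes lie on 17 chromosomes, with 11 of them on chromosome 11.

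The promoters of 68 members were found in the RefSeq table of the GRCm38.p6 assembly, as 74 windows of 300 bases that run from 250 bases before to 50 bases after a transcription start. Some windows are shown because the values below turn on their genes. They belong to Mrps33, the member with the highest level, to Mrps12, which shares its start region with a gene that was nearly silent, and to the paralogs Mrps18a, Mrps18b and Mrps18c. Each is written 5′ to 3′ along the gene, with capitals for every match to 3 short motifs on either strand: the core string CATGCGC of NRF1 sites, the ETS site CCGGAAG bound by GABP, and the YY1 site ATGGCGG.
Mrps33, chr6:39810887-39811186, minus strand: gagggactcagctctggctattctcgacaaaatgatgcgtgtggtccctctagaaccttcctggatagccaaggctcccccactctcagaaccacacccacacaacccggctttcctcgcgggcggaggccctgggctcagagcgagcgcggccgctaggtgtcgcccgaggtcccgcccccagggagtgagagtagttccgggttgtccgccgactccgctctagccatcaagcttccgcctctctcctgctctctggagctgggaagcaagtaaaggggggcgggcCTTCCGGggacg
Mrps12, chr7:28741772-28742071, minus strand: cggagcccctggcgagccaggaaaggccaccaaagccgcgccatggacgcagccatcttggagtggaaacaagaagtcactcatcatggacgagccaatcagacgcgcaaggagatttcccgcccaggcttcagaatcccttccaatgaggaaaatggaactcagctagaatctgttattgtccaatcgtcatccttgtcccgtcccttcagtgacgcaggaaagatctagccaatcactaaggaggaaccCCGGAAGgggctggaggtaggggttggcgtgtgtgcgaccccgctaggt
Mrps18a, chr17:46110754-46111053, plus strand: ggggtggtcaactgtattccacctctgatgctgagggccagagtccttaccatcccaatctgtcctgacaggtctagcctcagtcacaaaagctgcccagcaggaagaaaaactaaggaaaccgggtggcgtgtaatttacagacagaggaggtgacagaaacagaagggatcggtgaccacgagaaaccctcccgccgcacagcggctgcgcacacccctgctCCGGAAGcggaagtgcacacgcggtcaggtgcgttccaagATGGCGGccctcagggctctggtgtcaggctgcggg
Mrps18b, chr17:35916391-35916690, minus strand: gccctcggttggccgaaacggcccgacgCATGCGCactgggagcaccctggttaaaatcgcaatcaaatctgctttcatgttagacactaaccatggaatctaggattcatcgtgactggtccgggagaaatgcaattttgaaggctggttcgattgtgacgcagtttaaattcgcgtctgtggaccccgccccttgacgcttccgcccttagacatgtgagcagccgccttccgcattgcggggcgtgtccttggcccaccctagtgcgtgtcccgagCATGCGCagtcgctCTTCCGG
Mrps18c, chr5:100798509-100798808, plus strand: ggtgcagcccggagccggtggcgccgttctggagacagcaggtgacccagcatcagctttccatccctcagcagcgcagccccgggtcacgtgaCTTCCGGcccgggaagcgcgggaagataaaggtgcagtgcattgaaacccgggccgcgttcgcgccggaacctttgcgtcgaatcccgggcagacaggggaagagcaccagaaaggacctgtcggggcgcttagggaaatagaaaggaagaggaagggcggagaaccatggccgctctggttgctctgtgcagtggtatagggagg

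NRF1 and GABP are transcription factors known for their sites in nuclear genes of mitochondrial proteins, and YY1 sites often lie just after a transcription start. The ETS string was the most frequent of these 3 in the members' windows, at 33.8%, against 12.0% of the windows of protein-coding genes and 8.86% of all windows in the table. The YY1 string stood in 17.6% of the members' windows, against 5.40% of those of protein-coding genes and 4.05% of all windows. For the NRF1 string the shares were 9.46% in members, 4.96% in protein-coding genes and 3.91% in all windows. All 5 windows above hold the ETS string, Mrps18a also holds the YY1 string, and Mrps18b holds the NRF1 string at 2 places.

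Strings of general promoters were counted in the same way. The SP1 string GGGCGG was found in 52.7% of the members' windows, in 48.1% of those of protein-coding genes and in 35.7% of all windows. CCAAT stood in 39.2% of the members' windows, 37.8% of those of protein-coding genes and 37.4% of all windows. The TATA string TATAAA stood in 6.76% of the members' windows, against 12.0% in protein-coding genes and 13.6% in all windows. Both strands were searched, the strings may overlap one another, and a match or its absence in such a window describes the letters and not the binding of a factor. Members with the ETS string had a median level of 135 TPM (25 genes), and members without it 54.2 TPM (43 genes). The order was the other way for the YY1 string, with 44.7 TPM in 13 members that hold it and 81.2 TPM in 55 that do not, and for the NRF1 string, with 32.8 TPM in 7 members and 80.2 TPM in the other 61.

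Every member was expressed. Mean levels over the 12 libraries ran from 12.6 TPM for Mrpl1 to 669 TPM for Mrps33, with a median of 76.6 TPM and quartiles at 34.1 and 138 TPM. The median of all protein-coding genes was 0.796 TPM, so that the median member stood above 93.7% of them and even the lowest member above 75.0%. Of these 21474 genes, however, 8578 had a count of 0 in every library. The 6013 protein-coding genes with a mean of at least 10 TPM had a median of 31.1 TPM. In all, 29 members had a mean of at least 100 TPM, 34 lay between 30 and 100 TPM and 14 were under 30 TPM.

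**Figure D1:**
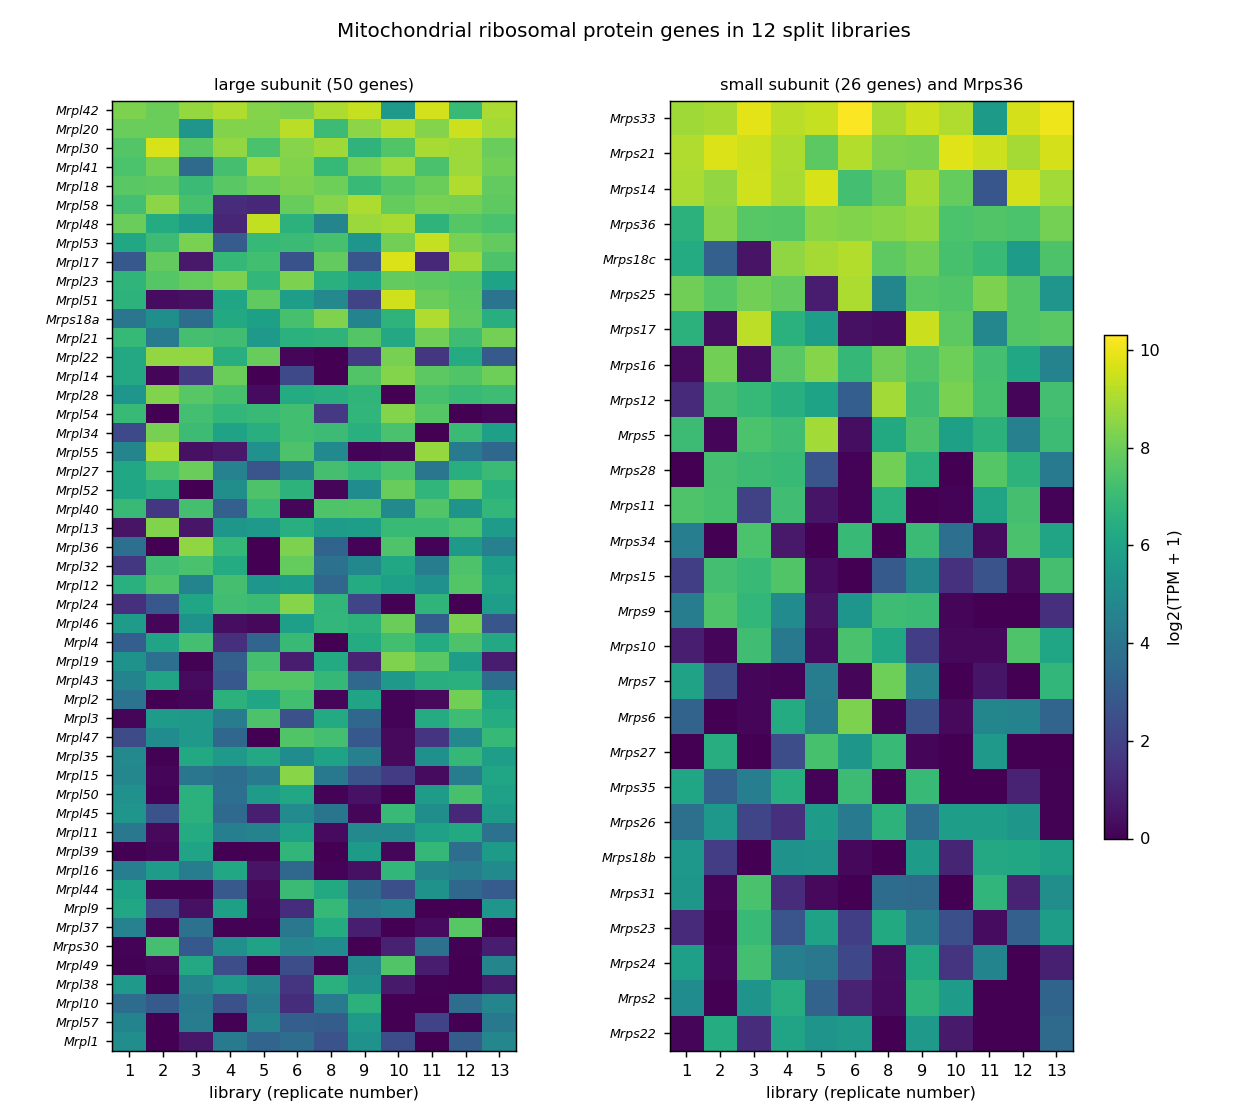
Level of each of the 77 mitochondrial ribosomal protein genes (rows, sorted by mean level within each panel) in each of the 12 libraries (columns), as colour on the log2(TPM + 1) scale. The 6 rows with a mean of at least 300 TPM are bright throughout apart from single libraries, such as Mrps14 and Mrps33 in library 11, whereas lower rows alternate between bright and dark cells from library to library.

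Among the small-subunit genes, Mrps33, Mrps21 and Mrps14 stood above the rest. Mrps33 (ENSMUSG00000029918.8; mm10 chromosome 6, 39801804 to 39810988) encodes a small protein with no bacterial counterpart, and its TPM was 47.9 in the lowest library, 638 at the median and 1198 in the highest. Mrps21 (ENSMUSG00000054312.5; chromosome 3, 95862634 to 95871519), the homologue of bacterial S21, had 208 TPM in the lowest library, 546 at the median and 886 in the highest. Mrps14 (ENSMUSG00000058267.9; chromosome 1, 160195215 to 160202170), the homologue of bacterial S14, had 5.82, 480 and 821 TPM at the same points. Both Mrps33 and Mrps14 had their lowest value in library 11, where Mrps21 was at 727 TPM, so that a low value of the first pair was not shared by the third gene.

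Next came Mrps18c, with 0.46, 164 and 546 TPM as its lowest, median and highest values. Mrps25, which encodes a mitochondria-specific protein, had 0.72, 195 and 518 TPM, and Mrps17, the homologue of bacterial S17, had 0.28, 95.9 and 716 TPM. Each of these 3 genes was under 1 TPM in at least 1 library while its median was at or above 95.9 TPM, although Mrps25 still had 58 counts in its lowest library. Mrps17 was under 1 TPM in libraries 2, 6 and 8 and stood at 610 and 716 TPM in libraries 3 and 9.

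The large subunit had its highest levels in Mrpl42, Mrpl20 and Mrpl30. Mrpl42 (ENSMUSG00000062981.4; chromosome 10, 95480805 to 95501940), whose product has no bacterial counterpart, ranged over 46.7, 371 and 764 TPM as lowest, median and highest. Mrpl20 (ENSMUSG00000029066.8; chromosome 4, 155802878 to 155809975), the homologue of bacterial L20, ranged over 40.1, 332 and 733 TPM. For Mrpl30 (ENSMUSG00000026087.7; chromosome 1, 37890477 to 37898535), the homologue of bacterial L30, the values were 103, 295 and 810 TPM. All 3 had at least 50 counts in every library, and their lowest values fell in 3 different libraries, 10, 3 and 9.

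Mrpl41, another mitochondria-specific protein, had 10.8, 278 and 445 TPM as its lowest, median and highest values. Mrpl18, whose human protein also binds 5S ribosomal RNA for its import into mitochondria, had 120, 219 and 535 TPM. Mrpl58, a release-factor-like hydrolase known in human cells to free stalled peptides, had 1.19, 236 and 519 TPM. Mrpl18 was the steadiest of these 3, with a coefficient of variation (CV, the SD over the mean) of 0.44, and Mrpl58 was at 1.19 and 1.49 TPM in libraries 5 and 4 and above 100 TPM in the others. Mrps36, which is not a ribosomal protein in the current view, had the lowest CV of all 77 genes, 0.39, at 255 ± 99.3 TPM (SD, n = 12).

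At the low end, Mrpl1, the homologue of the bacterial protein of the L1 stalk, had 0, 8.15 and 37.3 TPM as lowest, median and highest. Mrpl57 had 0, 7.47 and 46.7 TPM, and Mrpl10, which anchors the stalk that recruits translation factors, had 0, 11.7 and 96.6 TPM. All 3 had their highest value in library 9. These were low levels for a member. Their means were above the median of all protein-coding genes, which was under 1 TPM. They were below the median of 31.1 TPM of protein-coding genes with a mean of at least 10 TPM.

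Proteins with and without a bacterial counterpart differed little in level within the large subunit, with a median over genes of 81.2 TPM for the 29 that have one and 76.6 TPM for the 21 that do not. In the small subunit, the 16 genes with a bacterial counterpart had a median of 78.5 TPM and the 10 without one had 34.6 TPM, although the highest member of all, Mrps33, has no bacterial counterpart.

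Detection followed level only in part. Of the 924 values that 77 genes have in 12 libraries, 703 were at least 50 counts, 160 lay above 0 and under 50 counts, and 61 were 0. At a count of at least 1, 42 members were found in all 12 libraries, and 16 members reached 50 counts in all 12. In 10 or more libraries 37 members reached 50 counts, and 11 members did so in 6 libraries or fewer, with Mrpl37 the lowest at 5. A count of 0 allows up to 3 counts of the library's total, which covers counting error only, and PCR reads were counted with no molecular identifiers.

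Against other protein-coding genes of the same TPM, members reached 50 counts in a smaller share of values at intermediate levels. Between 100 and 300 TPM, 85.1% of the values of 23 members were at least 50 counts, against 95.0% for 679 other genes, and the median CV was 0.87 in members and 0.67 in the others. Between 30 and 100 TPM the shares were 72.1% for 34 members and 79.0% for 2026 other genes, with a median CV of 1.20 in members and 1.05 in the others. Below that, from 10 to 30 TPM, the shares were 60.7% for 14 members and 58.1% for 2898 other genes. These are descriptions, since members share libraries and were not replicates.

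Genes were also matched by count, which is not per length. Among genes with a mean count of 1000 to 3000, 78.7% of the values of 43 members were at least 50, against 82.4% for 2332 other protein-coding genes, and the median CV was 1.00 in members and 1.03 in the others. At mean counts of 3000 to 10000 the shares were 98.3% for 10 members and 98.4% for 897 other genes, with a median CV of 0.55 and 0.61. At 300 to 1000 counts the order of the shares was reversed, with 62.7% for 23 members against 52.2% for 3611 other genes. The median CV there was 1.34 in members and 1.61 in the others. The higher CV of members at matched TPM was thus not seen at matched count.

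**Figure D2:**
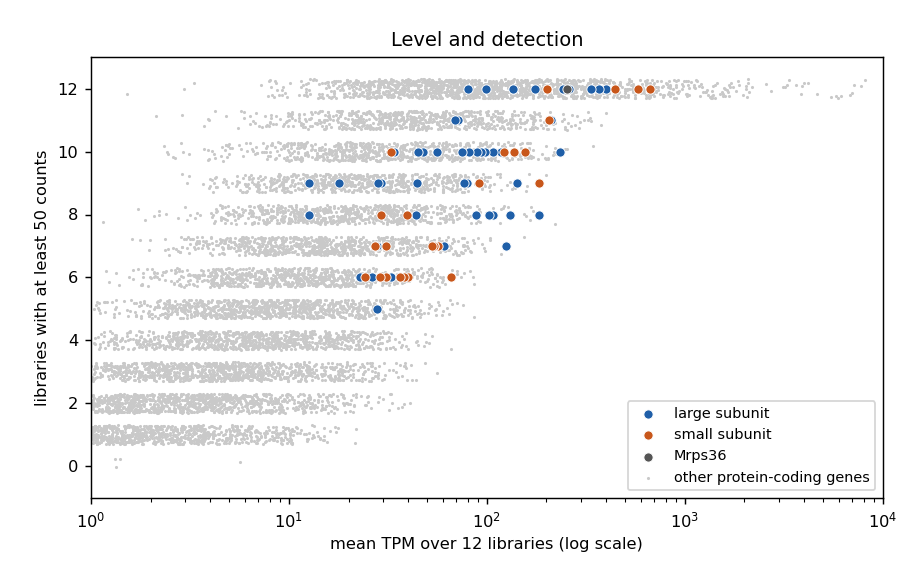
Number of libraries with at least 50 counts (vertical axis, 0 to 12) against mean TPM over the 12 libraries (horizontal axis, log scale) for large-subunit genes, small-subunit genes, Mrps36 and other protein-coding genes with a mean of at least 1 TPM (grey, spread vertically for visibility). The 6 members above 300 TPM reach 50 counts in 12 libraries, and most members between 30 and 300 TPM miss that mark in some library.

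Members were short. Their leading transcript, the one with the highest mean TPM, had a median length of 855 bases, against 1743 bases for the 6013 protein-coding genes with a mean of at least 10 TPM. Across the 77 members, length and mean TPM had a Spearman correlation of -0.72, against -0.32 across the 6013 genes. TPM is itself divided by length, and with the mean count in its place the correlation was -0.35 in members and 0.24 in the 6013 genes. The 10 highest members had leading transcripts of 688 bases at the median, and the 10 lowest had 1655 bases. Genes are not independent replicates, and these values carry no test.

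Summed over all 77 genes, the level was 9029 ± 1385 TPM (SD, n = 12), a CV of 15.3%, against 13.8% for the sum of the cytosolic ribosomal genes and 11.5% for that of the respiratory-chain genes. A sum over many genes varies less than its parts, and single members had a median CV of 1.08, from 0.39 for Mrps36 to 2.21 for Mrpl15. The sum was lowest in library 1, at 5906 TPM, and highest in library 12, at 10870 TPM. With TPM rescaled to annotated genes, so without the spike-ins, the sum was 10992 ± 2139 (SD, n = 12), a CV of 19.5% and 1.10% of the gene total. The 3 libraries with the lowest spike-in shares, 1, 4 and 13, had sums of 5906, 7898 and 8671 TPM. In the other 9 libraries the sums ran from 8198 to 10870 TPM. Rescaled to annotated genes, the sums in libraries 1, 4 and 13 were 6399, 8774 and 9431, against 10345.1 to 13772.5 in the other 9. Libraries 1, 4 and 13 had 61, 64 and 67 members at 50 counts or more, against 49 to 65 in the other 9. Of all annotated genes, 7775, 7827 and 8645 reached 50 counts in these 3 libraries, against 5407 to 6772 in the other 9. The higher detection was thus not particular to members. The part of the spike-in share in these values was not tested.

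The large subunit added up to 5343 ± 1403 TPM and the small subunit to 3431 ± 674 TPM (SD, n = 12 each). The median over genes within a library averaged 61.1 ± 28.1 TPM for large-subunit genes and 51.5 ± 34.6 TPM for small-subunit genes, with the large subunit higher in 8 of 12 libraries. On the log2 scale the large-over-small ratio of medians (each plus 1 TPM) was 0.49 ± 1.61, so the subunits differed by less than the spread between libraries. Library 10 stood apart, with a median of 88.0 TPM in the large subunit and 3.36 TPM in the small subunit, where 13 of 26 small-subunit genes reached 50 counts, and without it the mean log2 ratio was 0.14. Library 3 lay at the other end, with medians of 45.5 TPM for the large and 120 TPM for the small subunit.

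**Figure D3:**
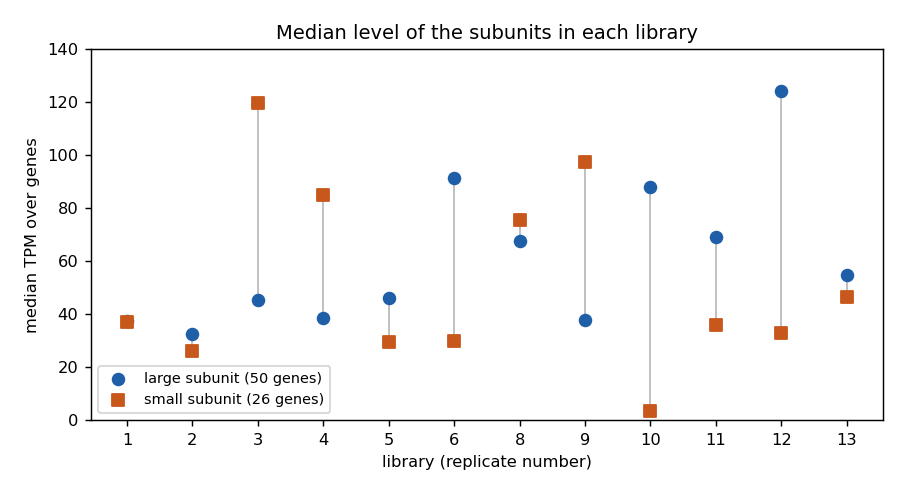
Median TPM over the 50 large-subunit genes (circles) and over the 26 small-subunit genes (squares) in each of the 12 libraries, with a grey line joining the 2 medians of a library. The large subunit is higher in 8 libraries, most of all in library 10, and the small subunit in libraries 3, 4, 8 and 9.

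No member was called as varying between libraries more than other genes of its abundance. The edgeR quasi-likelihood fit to the 13899 genes whose counts averaged 5 or more called 0 of the 77 members at an adjusted p under 0.05, against 2 genes or 0.0144% of all genes tested, Malat1 and Gm37376. At an unadjusted p under 0.05 there was 1 member, Mrps27, against 95 genes or 0.684% of all, and the robust version of the fit gave 7 members (9.09%) against 414 genes (2.98% of all) at that level and called no gene after adjustment. The ratio of a gene's dispersion to that of the abundance trend had a median of 1.14 in members and 1.20 over all genes tested. Genes of like abundance, against which each member was set, also varied from library to library. The fit called few genes of any kind, and ratios above those of all members went uncalled. Examples are mt-Cytb at 8.98 and Calb1 at 7.50 (adjusted p = 0.773 for both, edgeR), against 3.57 for the highest member. A result of 0 members therefore cannot show that members varied no more than the trend.

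Several of the members with the smallest p were near 0 in some libraries and abundant in others. Mrps27, which encodes a pentatricopeptide-repeat protein of the small subunit, had a dispersion ratio of 3.57 (p = 0.0385, adjusted p = 0.773, edgeR), and its lowest, median and highest values were 0, 2.27 and 159 TPM. It was at a count of 0 in 5 libraries and between 42.4 and 159 TPM in 5 others. Mrpl39, a large-subunit protein related in structure to threonyl-tRNA synthetase, had 0, 5.92 and 115 TPM at those points and a dispersion ratio of 3.06. Mrpl36, the homologue of bacterial L36, had 0, 17.0 and 380 TPM and a ratio of 2.68, and Mrpl17, the homologue of bacterial L17, had 0.61, 130 and 862 TPM and a ratio of 2.42. Mrps17, described above, had a ratio of 2.77.

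The other 5 of the 10 smallest p-values belonged to Mrpl22, Mrpl50, Mrps9, Mrpl55 and Mrpl35, with dispersion ratios of 2.29 to 2.41. Mrpl22 had 0, 77.2 and 398 TPM as lowest, median and highest values. Mrpl50 had 0.02, 43.1 and 157 TPM, and Mrps9 had 0, 24.8 and 178 TPM. Mrpl55 had 0.08, 21.5 and 523 TPM, and Mrpl35 had 0.05, 40.9 and 114 TPM. Each of these 5 genes stood at 0.08 TPM or less in its lowest library.

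Levels of different members were hardly correlated across the libraries. The mean Spearman correlation over the 2926 pairs of members was 0.00205 over 12 libraries, against 0.0146 over all pairs of genes with a mean of at least 10 TPM. Within the large subunit it was 0.0174 and within the small subunit 0.0103. The middle of the pairs lay between -0.23 and 0.23, and single pairs reached -0.92 for Mrpl22 with Mrpl44 and 0.85 for Mrpl43 with Mrpl18. For comparison, the same mean was 0.0842 among cytosolic ribosomal protein genes and 0.0939 among nuclear genes of the respiratory chain, whose levels were higher. With TPM rescaled to annotated genes, which takes the spike-ins out of the total, the means were 0.00464 for members, 0.00810 for all genes, 0.118 for cytosolic ribosomal genes and 0.181 for respiratory-chain genes. The points share library, depth and spike-in share, and the values carry no test.

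Related members were compared within each library. The 3 Mrps18 genes are paralogs of one another, related to bacterial S18. Only Mrps18c was counted above among the genes with a bacterial counterpart. The products of Mrps18b and Mrps18c sit in the small subunit and that of Mrps18a in the large one. Mrps18a had 11.4, 81.7 and 538 TPM as lowest, median and highest values, Mrps18b had 0, 38.1 and 73.8 TPM, and Mrps18c had 0.46, 164 and 546 TPM. In library 3 each of the 3 genes had its lowest value, and Mrps18b was also at 0 in library 8.

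Mrps18b was the lowest paralog. Its difference to Mrps18c on the log2(TPM + 1) scale, Mrps18b minus Mrps18c, was -3.06 ± 3.03 (SD, n = 12; adjusted p = 0.00391, exact two-sided sign-flip permutation test, adjusted over 4 pairs), with Mrps18b higher only in library 12. Mrps18a was above Mrps18b by 2.67 ± 3.08 (SD, n = 12), in 10 of 12 libraries (adjusted p = 0.0130, the same exact test), the exceptions being libraries 1 and 9. Between Mrps18a and Mrps18c the difference was -0.39 ± 2.28 (SD, n = 12), with Mrps18a higher in 5 of 12 libraries (adjusted p = 0.553, the same exact test), which was within the spread between libraries. The smallest unadjusted p that 12 libraries allow is 0.000488.

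Mrpl12 and Mrpl10 build the stalk of the large subunit, Mrpl10 as its base and Mrpl12 in several copies on it. Mrpl12 had 9.41, 59.1 and 186 TPM as lowest, median and highest values, against 0, 11.7 and 96.6 TPM for Mrpl10. Mrpl12 was above Mrpl10 by 2.75 ± 2.32 on the log2(TPM + 1) scale (SD, n = 12), in 10 of 12 libraries (adjusted p = 0.00684, exact two-sided sign-flip permutation test). The exceptions were library 8, with 9.41 TPM of Mrpl12 and 18.0 TPM of Mrpl10, and library 9, with 80.9 TPM of Mrpl12 and 96.6 TPM of Mrpl10. In libraries 10 and 11 Mrpl10 was at 0 while Mrpl12 stood at 54.7 and 35.5 TPM.

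**Figure D4:**
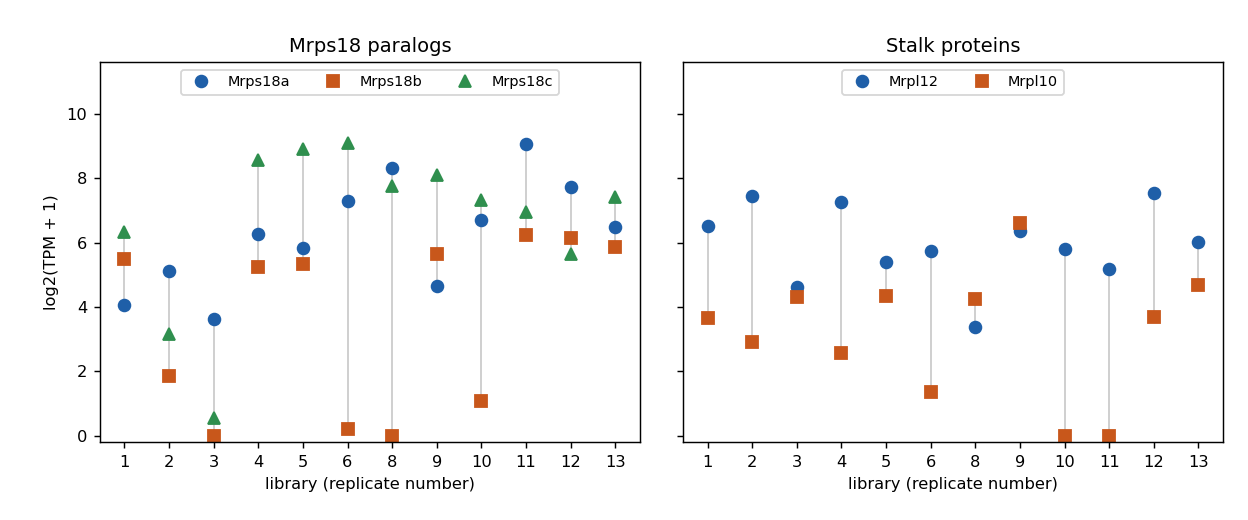
Levels on the log2(TPM + 1) scale of the 3 Mrps18 paralogs (left) and of the stalk genes Mrpl12 and Mrpl10 (right) in each of the 12 libraries, with a grey line over the range of the genes in a library. Mrps18b lies under Mrps18c in every library but 12, and Mrpl12 above Mrpl10 in every library but 8 and 9.

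Other genes of mitochondrial translation were set beside the members. The mitochondrial ribosome has proteins whose genes carry other names, and 5 of these had a median of 110 TPM, close to the members. They included Aurkaip1 (229 ± 226 TPM), Chchd1 (157 ± 102 TPM), Dap3, a GTP-binding protein of the small subunit (110 ± 67.4 TPM), and at the low end Gadd45gip1 (9.34 ± 13.2 TPM; SD, n = 12 each). The 2 mitochondrial ribosomal RNAs, mt-Rnr2 and mt-Rnr1, were listed at 2307 ± 703 and 780 ± 270 TPM, and the 13 mitochondrial messenger RNAs summed to 43940 ± 12793 TPM.

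Factors that act on or build the ribosome were lower. The 15 translation factors and RNA stabilisers had a median of 15.3 TPM against the members' 76.6 TPM, led by Slirp, which stabilises mitochondrial messenger RNA (335 ± 204 TPM), the elongation factor genes Tufm (46.3 ± 67.8 TPM) and Gfm1 (42.8 ± 51.1 TPM), with the release factor gene Mtrf1 lowest at 1.12 ± 3.88 TPM. The 22 assembly genes had a median of 5.73 TPM. By mean, Mpv17l2 (116 ± 93.0 TPM), Ngrn (49.5 ± 77.9 TPM) and Mrm3 (32.6 ± 82.0 TPM) were on top and Rpusd4 was lowest at 0.427 ± 1.48 TPM. The mean of Mrm3 rested on few libraries, with a median over libraries of 0.015 TPM and 50 counts reached in 2. Ngrn had a median of 4.1 TPM and 50 counts in 7 libraries, and Mpv17l2 had 100 TPM and 11 libraries. The 17 mitochondrial tRNA synthetase genes had a median of 2.09 TPM.

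Lars2, for the leucyl-tRNA synthetase, was the exception among the synthetases, at 176 ± 47.4 TPM and at least 50 counts in all 12 libraries. Next by mean were Tars2 at 23.5 ± 43.9 TPM and Iars2 at 21.6 ± 26.3 TPM, and Pars2 was lowest at 0.0892 ± 0.303 TPM (SD, n = 12 each). Tars2 had a median over libraries of 0.35 TPM and 50 counts in 5 libraries, against 11.4 TPM and 9 libraries for Iars2. The fit described above called 0 genes of these 4 lists, of which it could test all but Pars2, and 0 had an unadjusted p under 0.05. Over all 13899 genes tested the shares were 0.0144% and 0.684%, so counts of 0 say little about lists of this size.

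On the other side, the cytosolic ribosomal protein genes and the nuclear genes of the respiratory chain, whose products work beside those of the mitochondrial genome, were higher and steadier. The 85 cytosolic ribosomal genes had a median of 326 TPM and a median CV of 0.49, and 72 of them reached 50 counts in all 12 libraries. The 82 respiratory-chain genes had a median of 665 TPM and a median CV of 0.37, and 73 reached 50 counts in all 12. Among the 77 members the corresponding values were 76.6 TPM, 1.08 and 16 genes. The CV also fell with level: among other protein-coding genes its median was 1.05 at 30 to 100 TPM and 0.42 at 300 to 1000 TPM. Set against the abundance trend, the median dispersion ratio was 0.357 in cytosolic ribosomal genes, 0.551 in respiratory-chain genes and 1.14 in members.

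**Figure D5:**
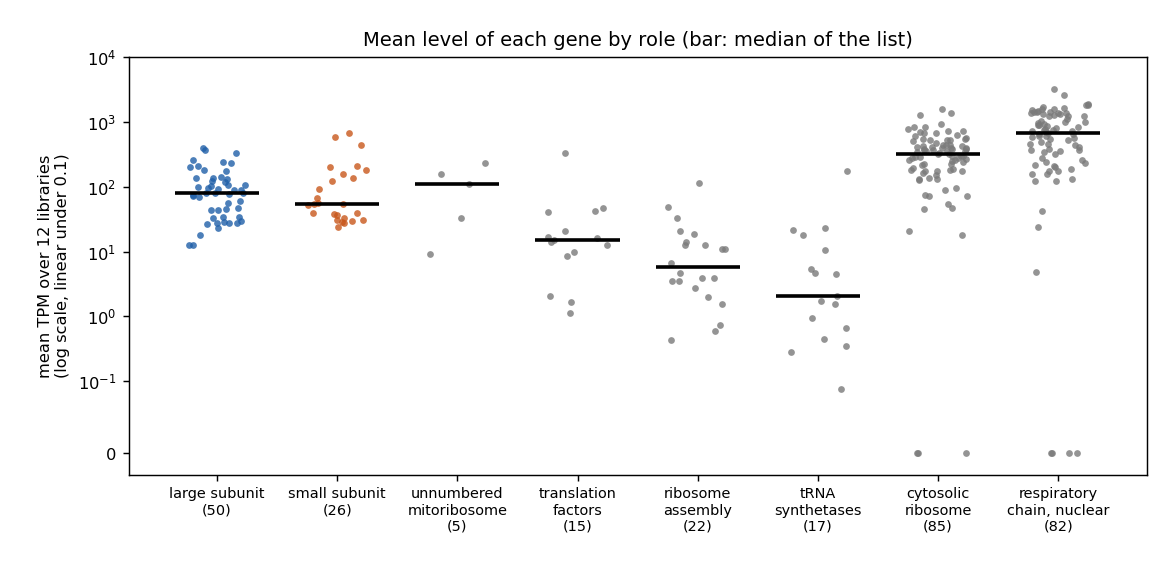
Mean TPM over the 12 libraries (log scale, linear under 0.1) of each gene of the large and small subunits and of 6 other lists, with a bar at the median of each list and the number of genes in brackets. Members centre near 80.7 TPM in the large and 54.0 TPM in the small subunit, above the translation factors, assembly genes and tRNA synthetases and below the cytosolic ribosome and the respiratory chain.

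Many members start beside another gene. For 33 of the 77 members (42.9%), a protein-coding gene on the opposite strand starts head to head within 1000 bases, against 2350 of 21474 protein-coding genes (10.9%). Every member was expressed, whereas 8578 of those 21474 genes had a count of 0 in every library. The share among expressed genes alone was not computed, so these shares cannot show a trait particular to members. The member had the higher mean TPM in 28 of the 33 arrangements. No such share was computed for other head-to-head genes, and the median member stood above 93.7% of all protein-coding genes. The count therefore describes the members' level and not their shared starts. Mrps11 and Mrpl46 face each other and are counted once on each side. For 29 of them a correlation over the 12 libraries could be computed, with a median Spearman value of -0.0385.

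Levels across such shared start regions could differ widely. Mrps12, the homologue of bacterial S12 at the decoding site, had 0.13, 129 and 474 TPM as lowest, median and highest values. The start of Sars2, the mitochondrial seryl-tRNA synthetase gene, lies 172 bases away, and it averaged 0.284 ± 0.984 TPM (SD, n = 12), with a count of at least 1 in 1 library. The Mrps12 window printed above covers the bases between these starts. Mrps18c averaged 207 ± 181 TPM beside Helq, a DNA helicase gene at 3.79 ± 13.1 TPM, whose start lies 29 bases away.

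In the other 5 the neighbour was the higher gene. Mrpl49 averaged 26.3 ± 53.1 TPM beside the cytosolic ribosomal gene Fau at 790 ± 345 TPM. Mrpl32 averaged 81.2 ± 78.2 TPM beside the proteasome gene Psma2 at 332 ± 216 TPM, and this pair had the highest correlation over the 12 libraries, 0.72. Mrps11 and Mrpl46 face each other, so that genes of both subunits share a start region and the arrangement counts for each of them. Mrps11 averaged 66.0 ± 74.2 TPM and Mrpl46 76.6 ± 101 TPM, with a correlation of -0.14. The other two, Mrpl36 and Mrpl47, overlap their neighbours and are described next.

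Some values are uncertain because reads may be shared. Exons of 32 members overlap another annotated gene, on the opposite strand for 28 and on the same strand for 7, and the strand of the libraries is not given in the sources used here. The overlapping gene was abundant for Mrpl47, at 47.8 ± 64.2 TPM beside Ndufb5 at 593 TPM, for Mrpl36, at 88.5 ± 131 TPM beside Ndufs6 at 461 TPM, and for Mrpl18 beside Tcp1 at 132 TPM. It was also abundant for Mrpl48, at 211 ± 209 TPM beside Rab6a at 115 TPM, and for Mrps34, at 56.6 ± 69.0 TPM beside Nme3 on its own strand at 59.8 TPM. The deposited posterior SD of the count exceeded 5% of a count of at least 50 in 4 members, reaching 17.2% in Mrpl19, 13.0% in Mrpl23, 5.66% in Mrpl24 and 5.06% in Mrpl53.

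Annotated transcripts of 1 gene were not used evenly. Of the 58 members with at least 2 transcripts, 15 had the same leading transcript in every library with a value above 0, and 23 when only libraries with at least 50 counts of the gene were read, a setting chosen after the data were seen. The leading transcript over all libraries was annotated as protein-coding in 44 members and as another type in 14. Mrpl41 had 99.9 ± 0.140% of its TPM in a protein-coding leader, and Mrps18a had 95.7 ± 10.4% (SD, n = 12 each). Shares were taken over libraries with at least 50 counts of the gene. Protein-coding leaders took a mean of 100% in Mrpl44 (9 libraries), Mrps2 (7 libraries) and Mrps22 (6 libraries). Over all libraries with a TPM above 0, these leaders led in 11 of 12, 9 of 10 and 9 of 9. Mrps33 led in all 12 libraries with a 500-base protein-coding transcript at 63.7 ± 13.1% of its TPM.

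Several high members were led by a transcript that is not annotated as coding. Mrps14 had 86.8 ± 19.9% of its TPM in a transcript annotated as a target of nonsense-mediated decay, and Mrps25 had 74.4 ± 25.3% in a retained-intron transcript (SD, n = 12 each). The leader of Mrpl23 was a noncoding processed transcript at 89.8 ± 13.3% (SD, n = 12). That of Mrpl51 was another such transcript at 63.4 ± 20.8% (SD, n = 9 libraries with at least 50 counts). The Mrpl51 transcript led in only 6 of 12 libraries. For Mrpl48, with 9 annotated transcripts, the leader had 274 bases and led in 5 of 12 libraries. Transcripts of a gene share exons, so these shares are the estimates of the deposited tables and their error was not tested.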

How the data were processed

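Per the labels, the libraries were made by a Smart-seq protocol from splits of 1 lysate and analysed on mm10; per the README deposited with each sample, features follow GENCODE M4. The aligner, counting program, strand and read filters were not given in the sources used here. Per the file headers, the deposited tables hold expected counts, which are estimated and not all whole, TPM with spike-ins in the total, and another value, the posterior SD of each count. Symbols, types and positions came from GENCODE M21 (42462 of 43346 identifiers matched), promoter sequences from RefSeq GRCm38.p6.

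Expected counts were rounded and fitted in edgeR 4.0.16 (R 4.3.3; TMM factors, intercept only, genes averaging 5 counts or more). Each quasi-dispersion was set against the abundance trend by an F test of its upper tail, with Benjamini-Hochberg adjustment at 0.05 over all genes. Pairs were compared on log2(TPM + 1) by exact two-sided sign-flip permutation tests over the 4096 sign patterns of 12 libraries, adjusted over 4 pairs. Everything else is description: detection at 1 and 50 counts, levels, Spearman correlations, leading transcripts at a mean TPM of at least 10, and motif strings. No groups could be compared. Depth was 15167444 to 27806010 counts per library.

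Members, lists, pairs and motifs were chosen with earlier results of these data known. Any member may be named; values by library are given for the 6 highest of each subunit, the 3 lowest, the pairs and the 10 with the smallest p for variation, and in the other lists the 3 highest and the lowest. Neighbours, overlaps and transcripts were picked after their values were seen. Alternatives covered scaling, filters, pseudocounts, thresholds and each library left out.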

Additional observations from a re-analysis of the deposited data

Results flagged for a closer look

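Pseudogenes were left out of the 77 members, and 4 annotated pseudogene rows nevertheless held signal, with an average above 3 counts per library. Mrpl23-ps1 stood at 178 ± 95.2 TPM with at least 50 counts in all 12 libraries, level with Mrpl23 itself at 174 ± 88.0 TPM. Mrpl48-ps had 29.1 ± 40.2 TPM and reached 50 counts in 8 libraries, against 211 ± 209 TPM for Mrpl48. Mrps36-ps1 had 5.43 ± 3.61 TPM and Mrps36-ps2 3.05 ± 3.62 TPM, with 50 counts in no library, and Mrps36-ps3 was at 0 throughout (SD, n = 12 each). Reads of a gene and its near-identical copy can be split between them by the counting, and how they were split was not tested.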

How the results depend on the processing

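The count of 0 members varying beyond the abundance trend was the same under RLE factors, library totals, no filter, a mean count of at least 50, a mean TPM of at least 10, the robust fit and without each library, while all genes called numbered 0 to 2. With so few genes called under any setting, the unchanged 0 says little about the members. No pair changed its side of the threshold under pseudocounts of 0.1 and 10 TPM, CPM or without any library; leaving out 1 library gave 2.16 to 3.05 for Mrps18a minus Mrps18b, -3.38 to -2.53 for Mrps18b minus Mrps18c and 2.47 to 3.08 for Mrpl12 minus Mrpl10. The uncalled Mrps18a minus Mrps18c ran from -0.70 to -0.11 and turned to 0.14 in CPM, which is not per length (adjusted p = 0.830, exact permutation test). Members found in all libraries numbered 42 to 45 without 1 library, 21 at 5 counts, 16 at 50 counts and 17 at 1 TPM, by construction of stricter limits. The log2 ratio of subunit medians ran from 0.14 to 0.67 without 1 library, and was 0.27 by symbol, 0.50 with rescaled TPM, 0.62 with sums and 0.72 in CPM. The summed TPM was 8861 to 9312 without 1 library and 10992 when rescaled to annotated genes. The mean correlation of members was -0.00223 to 0.00408 without 1 library, and members with 1 leading transcript numbered 15 to 18, or 23 in libraries with at least 50 counts. No pairing of samples between groups was possible because the libraries form 1 group. Counts under 50 and 1 pooled lysate limit what these values show.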

Other observations

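Some members owed most of their mean to 1 library. Mrpl15, the homologue of bacterial L15, had the highest CV of the 77 genes, 2.21, with 351 TPM in library 6 and a median of 16.1 TPM. Mrps6, the homologue of bacterial S6, had a CV of 2.18, with 304 TPM in the same library and a median of 9.06 TPM. Mrpl37 reached 198 TPM in library 12 over a median of 0.535 TPM, and Mrpl49 reached 181 TPM in library 10 over a median of 2.55 TPM. These 4 genes were picked after their values were seen. None of them was called by the edgeR test of variation (adjusted p of 0.773 to 0.891). That test called only 2 of all 13899 genes (0.0144%). Dispersion ratios were 0.63 for Mrpl15, 0.94 for Mrps6, 1.87 for Mrpl37 and 1.78 for Mrpl49, against a median of 1.20 over all genes tested. Despite their high CV, Mrpl15 and Mrps6 thus lay below the abundance trend. A mean over 12 splits describes such genes less well than the count of libraries that hold them, which was 5 to 9 at 50 counts.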
